A study of Mus musculus with 28 samples.

Results

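Mx1, Mx2, viperin (Rsad2) and its neighbour Cmpk2, the interferon-induced transmembrane genes Ifitm1, Ifitm2, Ifitm3 and Ifitm6, tetherin (Bst2) and Ly6e were followed across every group of an RNA-seq study of mouse macrophages that lack the GTPase Irgm1. The 10 genes were chosen by name, as rows of the deposited count tables whose Ensembl ID belongs to a listed symbol, by a rule that uses no measured value but was written with earlier results of these data known. All 10 were found in both tables, among 15423 genes in the table of the first experiment and 56941 in that of the second. All 10 also passed the filter on low counts in both.

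Primary macrophages were grown from the bone marrow of C57BL/6-background mice aged 2 to 4 months, male and female, for 6 days in medium with L929 cell-conditioned supplement, and were moved to medium without it for 24 h. The first experiment held wild-type cells (WT), cells of mice with a germline knockout of Irgm1 (Irgm1-KO), and cells of double-deficient mice without Irgm1 and without IFNAR, the receptor for type I interferon (Irgm_IFNAR-KO). The second held wild-type and Irgm1 knockout cells that were either controls (WT_control, Irgm1KO_control) or treated with fenofibrate (WT_fenofibrate, Irgm1KO_fenofibrate), a fibrate given against high blood lipids whose target is the receptor PPARα, listed in the labels at 50 µM. Each of the 7 groups had 4 libraries. The labels do not give the sex behind a library, the length of treatment, what the controls received or whether replicates came from separate mice, so p-values here reflect only how far these libraries differ among themselves, which may in part be technical. The libraries of a group were not repeats within counting noise (chi-square per gene of at least 19.4). Xist, a transcript of female cells, ran from -6.30 to 6.75 log2 CPM within WT_control, from -7.86 to 7.15 within WT_fenofibrate, from 0.43 to 7.15 within Irgm1KO_control and from 0.13 to 6.86 within Irgm1KO_fenofibrate, so the libraries of each of these groups did not all come from the same cells. In the first experiment it lay between 5.52 and 7.86 in all libraries. The study's stated question for the first experiment was which transcriptional changes of Irgm1 loss depend on type I interferon.

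These genes belong to the effector arm of the interferon response. Type I interferon binds its receptor IFNAR, and the signal reaches target genes through interferon-stimulated response elements near their start. The products then act on viruses at different steps and membranes. Mx proteins are dynamin-like GTPases that trap viral nucleocapsids. Viperin is a radical SAM enzyme on the endoplasmic reticulum and lipid droplets that makes the chain terminator ddhCTP, and Cmpk2 is a mitochondrial nucleotide kinase thought to supply its CTP substrate. IFITM proteins sit in the plasma membrane and endosomes and hinder the fusion of enveloped viruses. Tetherin holds budding virions on the cell surface, and Ly6e is a GPI-anchored protein that blocks coronavirus fusion.

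By the reference annotation (GENCODE vM21, build GRCm38), 8 of the members lie in 3 close groups. Mx1 (ENSMUSG00000000386) and Mx2 (ENSMUSG00000023341) lie 72.4 kb apart on chromosome 16, and Mx1 is 5.94 Mb from Ifnar1, which encodes an IFNAR subunit. Rsad2 (ENSMUSG00000020641) and Cmpk2 (ENSMUSG00000020638) lie 12.8 kb apart on chromosome 12 and point away from each other. The Ifitm genes form a cluster on chromosome 7, with gaps of 11.2 kb from Ifitm2 (ENSMUSG00000060591) to Ifitm1 (ENSMUSG00000025491), 39.8 kb from Ifitm1 to Ifitm3 (ENSMUSG00000025492) and 4.9 kb from Ifitm3 to Ifitm6 (ENSMUSG00000059108). Bst2 (ENSMUSG00000046718) is on chromosome 8 and Ly6e (ENSMUSG00000022587) on chromosome 15. RefSeq lists both Mx genes of this C57BL/6 reference as transcribed pseudogenes, whereas GENCODE vM21 has Mx1 as protein coding and Mx2 as a polymorphic pseudogene. Most laboratory strains carry Mx alleles that give no full-length protein, so Mx1 and Mx2 counts here are a readout of transcription. An exon of Ifitm2 overlaps that of Gm45717 on the same strand, so its reads could have been split in counting. The Mx and Ifitm genes belong to families of related sequence, and whether reads were shared among relatives was not tested.

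RefSeq start-site windows (build GRCm38.p6, from 250 bases before to 50 after each start, with the start as +1) were listed for 7 of the 10 members: Rsad2, Cmpk2, Bst2 and the 4 Ifitm genes. They were searched on both strands for the core of the interferon-stimulated response element (GAAA, any 2 bases, GAAA), which 3.44% of 32851 windows in the table hold. The windows of Rsad2, Ifitm2, Ifitm3 and Bst2 held it, and those of Cmpk2, Ifitm1 and Ifitm6 did not. The Ifitm1 window began at base 140967826, whereas GENCODE starts that gene at 140967221. On the minus strand, the Ifitm6 window began at 141017142 and the GENCODE gene at 141017924. The outermost GENCODE starts of Ifitm1 and Ifitm6 were therefore not searched. The matching stretches are shown because they hold the motif. These members moved with genotype in the data below, Ifitm2 in the opposite direction to the other 3. Cmpk2, Ifitm1 and Ifitm6, without a match, were also called for Irgm1 loss in both experiments, so the motif does not set apart the members that moved. Capitals mark the motif, in the reverse orientation (TTTC, any 2 bases, TTTC) for Rsad2 and as a pair of overlapping matches for Bst2. Sequences read 5′ to 3′ on the gene's strand, which is the minus strand for all 4.
Rsad2, chr12:26456453-26456602: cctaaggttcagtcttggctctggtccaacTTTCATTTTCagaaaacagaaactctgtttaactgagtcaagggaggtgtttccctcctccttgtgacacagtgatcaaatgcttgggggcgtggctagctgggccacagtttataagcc
Bst2, chr8:71537473-71537622: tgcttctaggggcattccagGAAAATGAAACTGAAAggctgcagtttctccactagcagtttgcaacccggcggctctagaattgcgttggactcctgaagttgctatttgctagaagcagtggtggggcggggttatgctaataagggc
Ifitm2, chr7:140955988-140956111: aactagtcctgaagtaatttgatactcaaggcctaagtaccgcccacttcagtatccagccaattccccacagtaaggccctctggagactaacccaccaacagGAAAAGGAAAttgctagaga
Ifitm3, chr7:141010716-141010742: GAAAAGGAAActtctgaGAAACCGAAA

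The matches lay at -120 to -111 in Rsad2, at -130 to -121 and -124 to -115 in Bst2, and at -46 to -37 in Ifitm2. Ifitm3 held its matches downstream of the annotated start, at +3 to +12 and +20 to +29. The motif of gamma-activated sites, TTCNNNGAA, was found in 8.30% of all windows and in those of Ifitm3 (+14 to +22, overlapping its second match), Ifitm6 (-10 to -2) and Bst2 (-136 to -128, overlapping the first match by a few bases). A common NF-kB motif (GGG, any 2 bases, TTTCC), found in 1.63% of windows, was in none of the 7. These are letter matches and say nothing of binding.

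**Figure D1:**
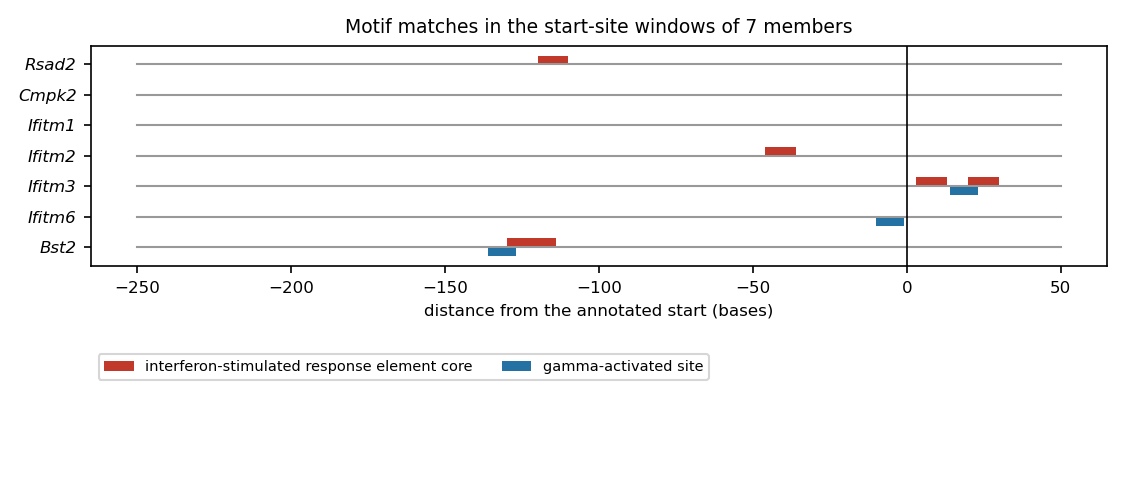
Motif matches in the RefSeq start-site windows of 7 members, by distance from the annotated start in bases (horizontal axis); red blocks are the interferon-stimulated response element core and blue blocks the gamma-activated site motif, on either strand. Rsad2, Ifitm2 and Bst2 hold the red motif upstream of the start, Ifitm3 holds it just downstream, and Cmpk2 and Ifitm1 hold neither.

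Total counts ran from 48652844 to 70455339 a library for the genotype experiment and from 82362311 to 120844616 for the fenofibrate one. Levels are given as CPM, the counts of a gene divided by the library's TMM-scaled total in units of 1000000, and each experiment was scaled alone, so levels were compared only within an experiment. Irgm1 mRNA was at 1189 to 1352 CPM in WT against 628 to 839 in Irgm1-KO and 641 to 786 in Irgm_IFNAR-KO, and at 1514 to 1669 CPM in WT_control against 991 to 1040 in Irgm1KO_control. It was lower in every knockout library but far from 0, and the part of the gene that was deleted is not given in the labels. Ifnar1 stood at 128 to 141 CPM in WT and at 114, 109, 53.1 and 108 CPM in the 4 Irgm_IFNAR-KO libraries, below every WT library, but the difference did not pass the test (edgeR adjusted p = 0.119), and replicate 3 stood apart.

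In cells without Irgm1, 7 of the 10 genes were higher and 2 lower, in each experiment. The pair of Mx genes rose most, by 11.2 to 13.9-fold, then Rsad2, Cmpk2 and Bst2, and the smallest called rises were those of Ifitm6 and Ifitm3. Ifitm1 and Ifitm2 fell, and Ly6e did not pass the test. The test was edgeR's quasi-likelihood test, and a gene counted as called when its Benjamini-Hochberg adjusted p was under 0.05. The background was high. In Irgm1-KO versus WT 40.4% of all tested genes were called, 19.8% higher and 20.7% lower, and in Irgm1KO_control versus WT_control 53.4% were, 27.3% higher and 26.1% lower. The members' median log2 difference was 1.33 in the first experiment and 1.37 in the second, beside -0.02 and 0.00 over all tested genes.

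**Figure D2:**
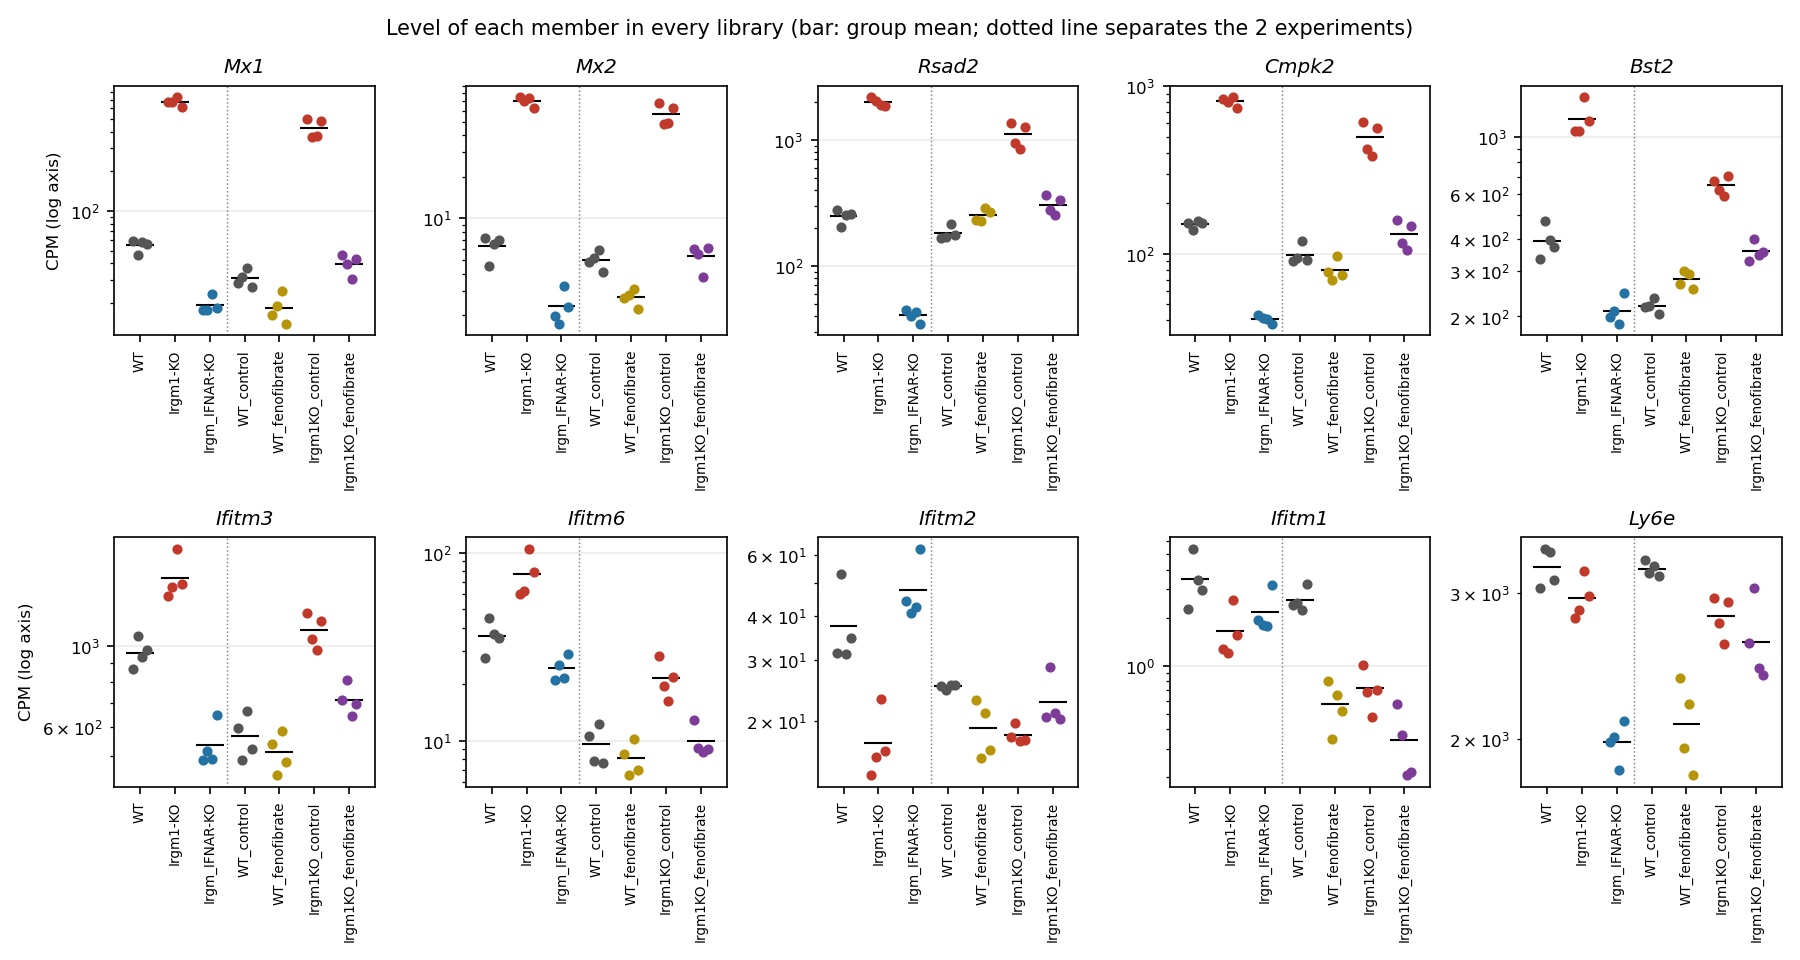
CPM of each of the 10 genes (log axes, 1 panel a gene with its own scale) in all 28 libraries; points are libraries, bars are group means, and the dotted line separates the experiments. Mx1, Mx2, Rsad2, Cmpk2 and Bst2 are highest in both Irgm1 knockout groups without fenofibrate, with no overlap with any other group of the same experiment, whereas Ifitm2 is lowest in Irgm1-KO among the groups of the first experiment.

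Mx1 was measured at 59.4, 46.7, 57.8 and 56.2 CPM in WT and at 674, 667, 728 and 616 CPM in Irgm1-KO. Its second-experiment values were 28.5, 31.3, 36.8 and 26.6 CPM in WT_control and 499, 365, 370 and 479 CPM in Irgm1KO_control. Every knockout library was far above every wild-type one, and knockout replicates 1 and 4 of the second experiment were higher than 2 and 3. The log2 difference was 3.61 (SE 0.121, edgeR adjusted p = 3.92e-09) in the first experiment and 3.80 (SE 0.191, adjusted p = 6.63e-10) in the second. In such bulk RNA, a change in the share of responding cells and a change in RNA per cell cannot be told apart.

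Mx2 gave far fewer reads but moved alike. It stood at 7.19, 4.50, 6.49 and 7.02 CPM in WT and at 74.9, 70.5, 73.9 and 62.7 CPM in Irgm1-KO, a log2 difference of 3.48 (SE 0.195, edgeR adjusted p = 7.36e-08). WT_control libraries held 4.84, 5.20, 5.93 and 4.10 CPM, and Irgm1KO_control libraries 68.2, 48.3, 49.0 and 63.2 CPM, with replicates 1 and 4 again the higher ones (log2 difference 3.51, SE 0.17, adjusted p = 4.07e-10). The groups did not overlap in either experiment.

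Rsad2 encodes viperin and, per kilobase of exon, was in both knockout groups more abundant than Cmpk2 or either Mx gene. WT libraries held 276, 202, 252 and 259 CPM and Irgm1-KO libraries 2173, 2026, 1905 and 1859 CPM, 8.05-fold more by the fit (log2 3.01, SE 0.117, edgeR adjusted p = 8.12e-09). The second experiment gave 165, 169, 214 and 175 CPM in WT_control and 1366, 946, 846 and 1271 CPM in Irgm1KO_control, a 6.14-fold difference (log2 2.62, SE 0.161, adjusted p = 4.44e-09). Its neighbour Cmpk2 rose less. Cmpk2 was at 153, 138, 157 and 153 CPM in WT and 834, 807, 858 and 744 CPM in Irgm1-KO (log2 2.43, SE 0.0768, edgeR adjusted p = 2.53e-09), and at 89.8, 94.0, 119 and 91.6 CPM in WT_control against 610, 423, 385 and 563 CPM in Irgm1KO_control (log2 2.33, SE 0.17, adjusted p = 2.76e-08). In both genes the groups were apart, and the spread within Irgm1KO_control followed the same replicates as in Mx1, with 1 and 4 high.

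Bst2, the tetherin gene, was already abundant in wild-type cells and rose in both experiments. It was at 336, 472, 399 and 373 CPM in WT and 1057, 1060, 1433 and 1163 CPM in Irgm1-KO, 2.98-fold more (log2 1.58, SE 0.135, edgeR adjusted p = 2.39e-06). Values of 217, 219, 236 and 205 CPM in WT_control and 673, 624, 591 and 709 CPM in Irgm1KO_control gave 2.96-fold (log2 1.57, SE 0.0762, adjusted p = 2.21e-10). No knockout library fell near the wild-type range.

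The 4 Ifitm genes of the chromosome 7 cluster split. Ifitm3, the member that restricts influenza virus in endosomes, went from 865 to 1070 CPM in WT to 1375 to 1856 CPM in Irgm1-KO (log2 0.68, SE 0.12, edgeR adjusted p = 0.000673). In the second experiment it went from 485 to 662 CPM to 980 to 1232 CPM (log2 0.97, SE 0.11, adjusted p = 1.68e-06). Ifitm6, found in mice and less studied, went from 27.6 to 45.2 CPM to 60.7 to 105 CPM and then, in the second experiment, from 7.64 to 12.3 CPM to 16.3 to 28.1 CPM (log2 1.09 and 1.16, edgeR adjusted p = 0.000774 and 0.00014). Neither gene's groups overlapped.

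Ifitm2 and Ifitm1 moved the other way. Ifitm2 was at 31.5, 53.0, 31.3 and 34.6 CPM in WT and 14, 15.8, 23.2 and 16.4 CPM in Irgm1-KO, with no overlap (log2 -1.11, SE 0.213, edgeR adjusted p = 0.00123). In the second experiment it was at 25.3, 24.6, 25.4 and 25.5 CPM in WT_control and 18.0, 19.8, 17.6 and 17.7 CPM in Irgm1KO_control (log2 -0.46, SE 0.118, adjusted p = 0.0033). Ifitm1 gave few reads, 19 to 385 counts a library. Its WT values of 2.26, 5.39, 3.44 and 2.96 CPM overlapped the Irgm1-KO values of 1.27, 1.20, 2.57 and 1.55 CPM (log2 -1.08, SE 0.317, edgeR adjusted p = 0.0166), and without replicate 2 of Irgm1-KO the difference of -0.95 no longer passed (adjusted p = 0.0521). The second experiment separated the groups, at 2.39, 2.45, 2.22 and 3.25 CPM in WT_control against 1.01, 0.681, 0.478 and 0.708 CPM in Irgm1KO_control (log2 -1.83, SE 0.287, adjusted p = 5.01e-05).

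Marker genes of other marrow cells also differed between the groups, though not always in the direction of Ifitm1 and Ifitm2. Of 7 tested neutrophil markers 6 were lower in Irgm1-KO than in WT, and the summed level of the 8 listed genes in that table was 17.1 to 41.7 CPM in WT, 6.07 to 10.2 in Irgm1-KO (Elane at 0) and 16.7 to 26.4 in Irgm_IFNAR-KO. In the second experiment the sum of all 10 listed was 3.77 to 7.92 CPM in WT_control, 3.19 to 4.24 in WT_fenofibrate, 1.52 to 1.94 in Irgm1KO_control and 2.30 to 3.83 in Irgm1KO_fenofibrate. Retnlg was at 0 in all 4 of these groups, Elane in both knockout ones, and S100a9, Camp and Ngp in Irgm1KO_fenofibrate. Of the 4 monocyte markers, 2 were higher and 2 lower in Irgm1-KO, and their sum was 249 to 597 CPM in WT, 86.2 to 221 in Irgm1-KO and 247 to 303 in Irgm_IFNAR-KO. In the second experiment that sum was 90.7 to 198 CPM in WT_control, 16.4 to 35.9 in WT_fenofibrate, 32.8 to 57.5 in Irgm1KO_control and 17.2 to 47.4 in Irgm1KO_fenofibrate. With fenofibrate in the knockout, 1 of 3 tested neutrophil markers was higher and 2 of 4 monocyte markers were lower. The part of these cells in the Ifitm1 and Ifitm2 results was not tested. The 8 macrophage markers were present in every library. Their sums were 21161 to 41487 CPM in WT, 9428 to 14606 in Irgm1-KO and 28663 to 39956 in Irgm_IFNAR-KO. In the second experiment they lay between 10544 and 30726 CPM, lowest in Irgm1KO_control. Much of each sum was the single gene Lyz2, with means of 23184 CPM in WT, 5555 in Irgm1-KO and 27108 in Irgm_IFNAR-KO. Its means were 17673 CPM in WT_control, 12330 in WT_fenofibrate, 5353 in Irgm1KO_control and 10610 in Irgm1KO_fenofibrate. Of the 8 markers, 1 was called higher and 3 lower in Irgm1-KO, and 1 higher and 5 lower in Irgm1KO_control. Markers of B, T and NK, stromal, erythroid and mast cells summed to at most 1.88 CPM in any library, those of dendritic cells to 8.50 to 71.7 CPM and those of plasmacytoid dendritic cells to 60.3 to 118 CPM. Most of this last sum was the single gene Tcf4, with group means of 60.2 to 110 CPM. Of the other markers on that list, Cox6a2 had group means of 0.232 to 10.1 CPM, and Klk1 was at 0 throughout the second experiment.

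Ly6e did not follow the others. It was among the 3 most abundant of the 10 per kilobase in all groups. It stood at 3042, 3387, 3354 and 3106 CPM in WT and 2798, 2855, 3185 and 2973 CPM in Irgm1-KO, which overlapped (log2 -0.13, 95% interval -0.26 to 0.01, edgeR adjusted p = 0.171). WT_control held 3287, 3165, 3230 and 3144 CPM and Irgm1KO_control 2954, 2756, 2600 and 2921 CPM, without overlap, yet the difference of -0.19 missed the threshold (95% interval -0.36 to -0.02, adjusted p = 0.0718). It passed without the low-count filter (adjusted p = 0.0362), with Xist as a covariate (-0.25, adjusted p = 0.00841), with these 2 groups alone (adjusted p = 0.0102), and without WT_fenofibrate replicate 4 or Irgm1KO_fenofibrate replicate 2 (adjusted p = 0.0451 and 0.0377).

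Loss of IFNAR on top of Irgm1 lowered 8 members against Irgm1-KO and raised 1. The background was again high, with 42.8% of tested genes called, 21.3% lower and 21.5% higher. Rsad2 fell by 5.63 on the log2 scale (SE 0.132, edgeR adjusted p = 6.06e-11), to 44.3, 39.6, 42.8 and 34.5 CPM, which is 49.4-fold below Irgm1-KO. Mx1 fell by 5.12 to 17.6, 17.6, 23.3 and 18.5 CPM, Mx2 fell by 4.92 to 1.99, 1.73, 3.26 and 2.31 CPM, and Cmpk2 fell by 4.31 to 43.2, 41.2, 40.6 and 38.0 CPM (edgeR adjusted p from 1.04e-11 to 5.19e-09). All 4 genes ended below every WT library. Bst2 fell by 2.48 to 187 to 247 CPM, Ifitm6 by 1.67 to 20.9 to 29.0 CPM and Ifitm3 by 1.53 to 486 to 647 CPM. Ly6e, which had not passed the test for Irgm1 loss, fell by 0.57 to 1983, 2008, 1836 and 2102 CPM (SE 0.0693, edgeR adjusted p = 2.98e-05), below all WT and Irgm1-KO libraries.

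Ifitm2 was the member that rose with receptor loss. It was at 44.3, 40.8, 42.6 and 62.5 CPM in Irgm_IFNAR-KO, above every Irgm1-KO library (log2 1.45, SE 0.214, edgeR adjusted p = 0.00016) and overlapping WT. Ifitm1, at 1.92, 1.79, 1.78 and 3.18 CPM, did not pass the test against Irgm1-KO (log2 0.39, 95% interval -0.24 to 1.02, adjusted p = 0.355), but did with Xist as a covariate (0.46, adjusted p = 0.0156). Neutrophil marker sums were also higher in Irgm_IFNAR-KO than in Irgm1-KO, as given above.

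Set against WT, the cells without both genes showed 7 of 10 members lower. None was higher by edgeR or DESeq2, nor at an unadjusted edgeR p below 0.05. As background, 12.2% of tested genes were called, 8.22% lower and 3.94% higher. This comparison shares its Irgm_IFNAR-KO libraries with the preceding one. Rsad2 was 6.14-fold lower (log2 -2.62, SE 0.115, edgeR adjusted p = 4.91e-08), Cmpk2 3.69-fold (log2 -1.88, adjusted p = 2.51e-08), Mx1 2.86-fold (log2 -1.52, adjusted p = 3.89e-06) and Mx2 2.72-fold (log2 -1.44, adjusted p = 0.000337). Smaller decreases were called for Bst2 (-0.91), Ifitm3 (-0.85) and Ly6e (-0.70). Ifitm6 (-0.58, adjusted p = 0.0805), Ifitm1 (-0.69, adjusted p = 0.21) and Ifitm2 (0.34, adjusted p = 0.405) did not pass. Ifitm6 passed with DESeq2 (-0.58, adjusted p = 0.0268), with Xist (-0.41, adjusted p = 0.00315), and without WT replicate 1 or Irgm1-KO replicate 3 (adjusted p = 0.0349 and 0.032), and Ifitm2 with Xist (0.52, adjusted p = 0.00076).

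**Figure D3:**
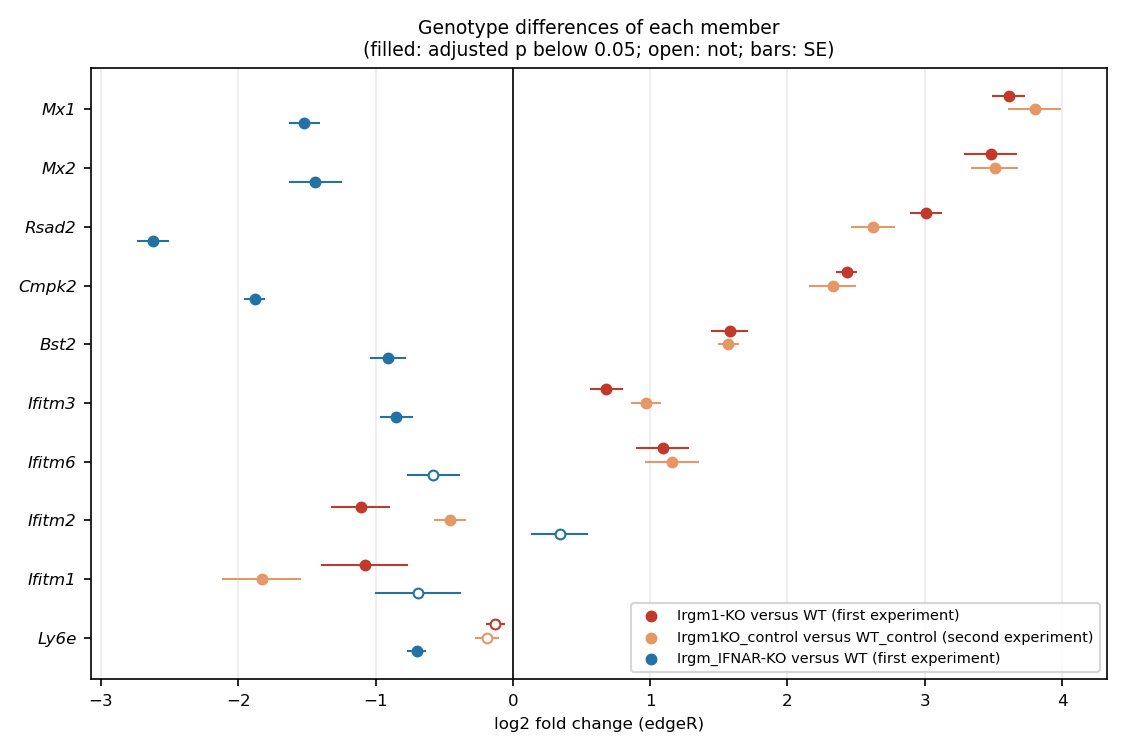
Log2 fold change of each gene (horizontal axis) for Irgm1 loss in the first experiment (red) and the second (orange) and for loss of both Irgm1 and IFNAR against WT (blue); bars are standard errors, and filled points have an adjusted p below 0.05 in edgeR. Red and orange points lie near each other for Mx1, Mx2, Cmpk2 and Bst2, at 3.61 and 3.80, 3.48 and 3.51, 2.43 and 2.33, and 1.58 and 1.57, and blue points lie below 0 for all but Ifitm2.

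The Irgm1 effect was set against itself across experiments in a joint fit of all 28 libraries. None of the 10 members passed the test of that difference, where 6.25% of 15114 tested genes did (2.44% with a larger value in the first experiment and 3.81% with a smaller one). DESeq2 also called 0. At an edgeR unadjusted p below 0.05 there was 1, Ifitm2, whose decrease was larger in the first experiment (log2 difference -0.67, 95% interval -1.14 to -0.20, edgeR adjusted p = 0.105). Without replicate 3 of Irgm1-KO that difference was -0.84 and passed (adjusted p = 0.0205). For Mx1 the interval of the difference was -0.63 to 0.21, for Mx2 -0.52 to 0.42, for Bst2 -0.30 to 0.28 and for Rsad2 -0.01 to 0.76, so true differences within these bounds are not excluded.

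Fenofibrate acted on the members differently by genotype. In wild-type macrophages it changed 7 of them in both directions, with 5 called lower and 2 higher. With the replicate number as a block, 7 were called lower and 2 higher. Of all tested genes 35.0% were called, 16.9% lower and 18.1% higher. Ifitm1 fell most, from the WT_control values above to 0.799, 0.348, 0.651 and 0.517 CPM (log2 -2.17, SE 0.293, edgeR adjusted p = 4.29e-05), with no overlap. The 4 monocyte markers were also called lower in this comparison, and their sums were given above. Mx2 fell to 2.66, 2.78, 3.10 and 2.23 CPM (log2 -0.90, SE 0.166, adjusted p = 0.000668) and Mx1 to 16.2, 19.0, 24.8 and 13.9 CPM (log2 -0.74, SE 0.175, adjusted p = 0.00415), each below all controls. Ly6e, which had not passed the test for Irgm1 loss, fell here to 2367, 1950, 2203 and 1807 CPM (log2 -0.62, SE 0.0864, adjusted p = 5.05e-05).

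The pair next to each other on chromosome 12 parted under the drug in wild-type cells. Rsad2 was at 229, 226, 290 and 265 CPM in WT_fenofibrate, above every WT_control library (log2 0.48, SE 0.153, edgeR adjusted p = 0.022). In the fit without the block, that call was lost without WT_control replicate 1, 2 or 4 or WT_fenofibrate replicate 3 or 4 (log2 0.41 to 0.47, adjusted p from 0.0515 to 0.0671), and without the low-count filter (0.48, adjusted p = 0.0846). With the replicate number as a block and all libraries, Rsad2 passed (0.48, edgeR adjusted p = 4.09e-06). Cmpk2, at 77.8, 69.8, 96.6 and 74.4 CPM, overlapped its controls and did not pass (log2 -0.31, adjusted p = 0.16), but it passed with the replicate number as a block (-0.31, adjusted p = 6.96e-05). Per kilobase of exon, the ratio of Rsad2 to Cmpk2 was 1.72 to 1.83 in the WT_control libraries and 2.82 to 3.42 in the WT_fenofibrate ones.

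Bst2 rose with fenofibrate in wild-type cells, to 267, 301, 294 and 257 CPM, above all controls (log2 0.35, SE 0.0746, edgeR adjusted p = 0.00166). Ifitm2 fell to 23.0, 15.7, 21.2 and 16.6 CPM (log2 -0.40, SE 0.118, adjusted p = 0.015), a call that was lost without WT_fenofibrate replicate 4 (-0.34, adjusted p = 0.0541). With the replicate block and all libraries it passed (-0.42, edgeR adjusted p = 0.00176). Ifitm3, at 441 to 586 CPM, and Ifitm6, at 6.52 to 10.2 CPM, overlapped their controls and did not pass (log2 -0.15 and -0.25, adjusted p = 0.322 and 0.366), although with the replicate block Ifitm6 did (-0.24, adjusted p = 0.00753).

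In Irgm1 knockout macrophages fenofibrate lowered 8 members and raised 1, where 45.7% of tested genes were called, 22.2% lower and 23.5% higher. Mx1 fell 10.7-fold to 46.3, 39.4, 30.5 and 43.5 CPM (log2 -3.42, SE 0.188, edgeR adjusted p = 4.52e-09). Mx2 fell by the same factor to 6.06, 5.53, 3.78 and 6.09 CPM (log2 -3.42, SE 0.17, adjusted p = 2.18e-09). The treated values of both genes overlapped those of WT_control. Rsad2 fell 3.62-fold to 364, 276, 254 and 330 CPM (log2 -1.86, SE 0.157, adjusted p = 2.02e-07) and Cmpk2 3.76-fold to 158, 116, 105 and 147 CPM (log2 -1.91, SE 0.167, adjusted p = 3.02e-07). Here the chromosome 12 pair moved together, and their ratio per kilobase was 2.11 to 2.17 in Irgm1KO_control and 2.16 to 2.31 in Irgm1KO_fenofibrate.

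The membrane factors fell less. Bst2 dropped to 330, 403, 346 and 357 CPM (log2 -0.86, SE 0.075, edgeR adjusted p = 1.73e-07), Ifitm6 to 8.73 to 12.8 CPM (-1.12, adjusted p = 0.000272), Ifitm3 to 642 to 806 CPM (-0.64, adjusted p = 0.000157) and Ifitm1 to 0.574, 0.365, 0.205 and 0.216 CPM (-1.10, adjusted p = 0.0104). Ifitm2 was the gene that rose, to 20.6, 28.6, 21.2 and 20.3 CPM (log2 0.31, SE 0.118, adjusted p = 0.04). Its treated libraries were all above the controls, but without Irgm1KO_fenofibrate replicate 2 the difference was 0.17 (adjusted p = 0.18), and the call was also lost without WT_control replicate 1, 2 or 3 or Irgm1KO_control replicate 1, 3 or 4 (0.28 to 0.31, adjusted p from 0.0526 to 0.0969) or without the low-count filter (0.32, adjusted p = 0.0658). With the replicate block and all libraries Ifitm2 passed (0.30, edgeR adjusted p = 0.0103). Ly6e, at 2611, 3038, 2432 and 2390 CPM, overlapped its controls (log2 -0.10, 95% interval -0.27 to 0.07, adjusted p = 0.361).

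The genotype by fenofibrate interaction asks whether the drug's effect differed between knockout and wild type, and 9 members passed it, 7 with a lower and 2 with a higher value in the knockout, against 29.6% of all tested genes (14.7% and 14.9%). With the replicate block 7 had a lower and 3 a higher value. It shares its libraries with the comparisons above. The difference of log2 effects was -2.69 (SE 0.248, edgeR adjusted p = 2.92e-06) for Mx1, -2.52 (SE 0.231, adjusted p = 2.52e-06) for Mx2, -2.34 (SE 0.218, adjusted p = 2.92e-06) for Rsad2, -1.60 (SE 0.231, adjusted p = 0.000123) for Cmpk2 and -1.21 (SE 0.106, adjusted p = 1.07e-06) for Bst2. Rsad2 and Bst2 rose in the wild type and fell in the knockout. Positive values were found for Ifitm2 (0.71, adjusted p = 0.00443), which fell in the wild type and rose in the knockout, and for Ly6e (0.52, adjusted p = 0.00415).

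Some interactions did not hold with every library left out in turn in the fit without the block. Ifitm3 (-0.49, SE 0.154, edgeR adjusted p = 0.0244) lost its call without WT_control replicate 4, WT_fenofibrate replicate 3, Irgm1KO_control replicate 1 or Irgm1KO_fenofibrate replicate 3 (adjusted p from 0.052 to 0.0554). Ifitm6 (-0.87, SE 0.28, adjusted p = 0.029) lost it without WT_control replicate 2 or 4, WT_fenofibrate replicate 3, Irgm1KO_control replicate 1 or Irgm1KO_fenofibrate replicate 2, 3 or 4 (adjusted p from 0.0507 to 0.0663). Both also lost it without the low-count filter (adjusted p = 0.0642 and 0.1). With the replicate block and all libraries both passed (-0.49 and -0.87, edgeR adjusted p = 0.000438 and 7.56e-06). Ifitm1 did not pass (1.06, 95% interval 0.21 to 1.92, adjusted p = 0.0796), but passed with the replicate block (1.09, adjusted p = 0.0162), with DESeq2 (1.06, adjusted p = 0.0455), and without WT_fenofibrate replicate 1, Irgm1KO_control replicate 1 or Irgm1KO_fenofibrate replicate 3 (1.25 to 1.28, adjusted p from 0.0426 to 0.0456).

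**Figure D4:**
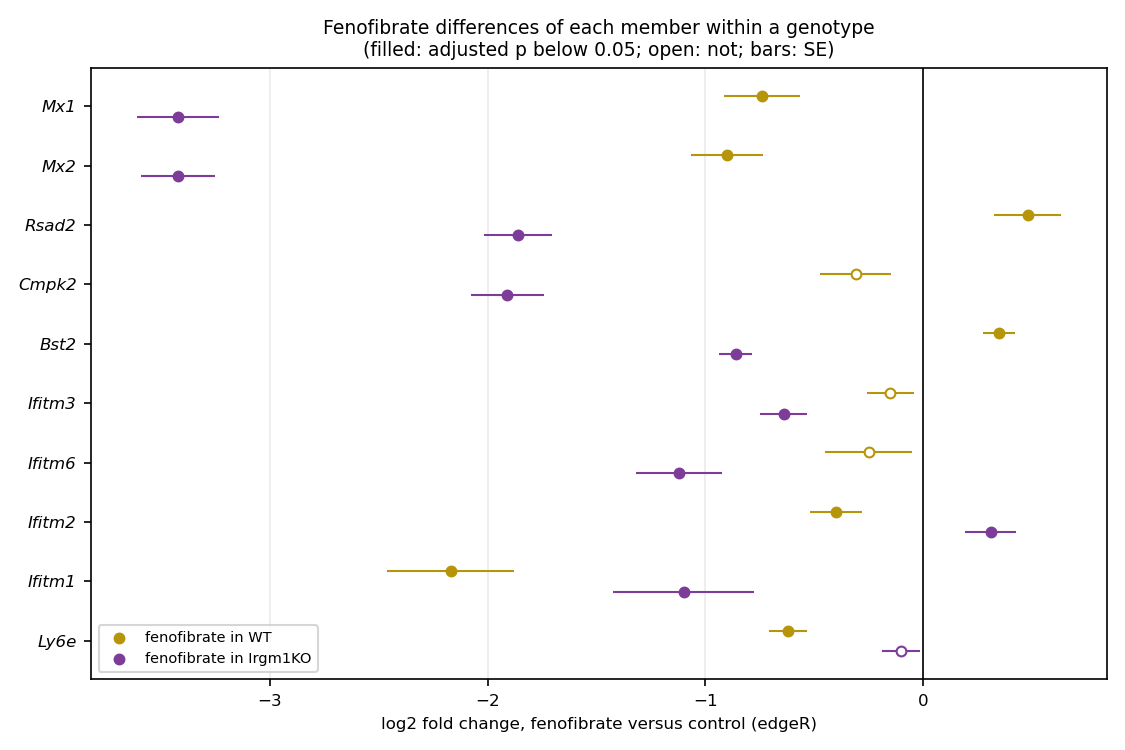
Log2 fold change of each gene with fenofibrate (horizontal axis) in wild-type (gold) and Irgm1 knockout (purple) macrophages; bars are standard errors and filled points have an adjusted p below 0.05 in edgeR. Purple points reach -3.42 for Mx1 and Mx2 where gold points are at -0.74 and -0.90, and Rsad2 and Bst2 lie to the right of 0 in gold (0.48 and 0.35) and to the left in purple (-1.86 and -0.86).

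Under fenofibrate the knockout still stood above the wild type for part of the set. Against WT_fenofibrate, 6 members were higher in Irgm1KO_fenofibrate, where 33.3% of tested genes were called, 18.1% higher and 15.2% lower. None was lower by edgeR, and 1, Ifitm1, was at an unadjusted edgeR p below 0.05 and by DESeq2 (-0.78, adjusted p = 0.0436). Mx1 remained 2.16-fold higher (log2 1.11, SE 0.176, edgeR adjusted p = 0.000274), Mx2 2.00-fold (1.00, adjusted p = 0.0004) and Cmpk2 1.65-fold (0.72, adjusted p = 0.00347). Smaller differences were called for Ifitm3 (0.48), Bst2 (0.36) and Ly6e (0.33), and for Ly6e the libraries did not overlap, although with these 2 groups alone it missed the threshold (0.31). Rsad2 did not pass (0.28, 95% interval -0.02 to 0.58, adjusted p = 0.173), and neither did Ifitm6 (0.29), Ifitm2 (0.25) or Ifitm1 (-0.77, adjusted p = 0.0802). Ifitm1 passed without WT_fenofibrate replicate 2 (-0.96, adjusted p = 0.038) or Irgm1KO_fenofibrate replicate 1 (-1.14, adjusted p = 0.0142), and Ifitm2 without WT_fenofibrate replicate 1 (0.35, adjusted p = 0.0326).

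Treated knockout cells were then set against untreated wild type. Here 4 members were called higher and 2 lower, with 48.4% of tested genes called as background, 25.9% higher and 22.5% lower. Rsad2 (0.76, SE 0.153, edgeR adjusted p = 0.000743) and Bst2 (0.71, SE 0.0749, adjusted p = 1.7e-06) stayed above WT_control without overlap. Mx2 (0.10, 95% interval -0.22 to 0.41) and Ifitm6 (0.05, 95% interval -0.34 to 0.43) did not pass. Mx1 was at 0.38 (95% interval 0.04 to 0.71, adjusted p = 0.0866) and passed without Irgm1KO_fenofibrate replicate 3 (0.49, adjusted p = 0.0334) or with these 2 groups alone (0.37, adjusted p = 0.0485). Ifitm1 (-2.94, SE 0.314, adjusted p = 2.12e-06) and Ly6e (-0.29, adjusted p = 0.01) were lower. Ifitm2 was at -0.15 (adjusted p = 0.306) and at -0.29 without Irgm1KO_fenofibrate replicate 2 (adjusted p = 0.0247).

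Calls for Cmpk2 (0.42, adjusted p = 0.0455) and Ifitm3 (0.33, adjusted p = 0.0185) in that comparison depended on the libraries and settings used. Cmpk2 lost its call without WT_control replicate 1, 2 or 4, WT_fenofibrate replicate 1 or 4, Irgm1KO_control replicate 2 or 4, or Irgm1KO_fenofibrate replicate 1, 2 or 4 (0.30 to 0.46, edgeR adjusted p from 0.0533 to 0.166), and with RLE scaling, with Xist and without the low-count filter (adjusted p = 0.0574, 0.0731 and 0.151). Ifitm3 lost it without WT_control replicate 2 or 4 or Irgm1KO_fenofibrate replicate 2 (0.25 to 0.29, adjusted p from 0.0558 to 0.0807) and without the low-count filter (0.32, adjusted p = 0.055).

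Adjusted for exon length, as CPM per kilobase of exon, the levels of the 10 genes spanned over 2 orders of magnitude. In WT the order was Ifitm3 (1418), Ly6e (852), Bst2 (438), Ifitm2 (57.4), Rsad2 (57.0), Ifitm6 (40.0), Cmpk2 (36.1), Mx1 (14.5), Ifitm1 (3.21) and Mx2 (1.74 CPM per kb). Library ranges overlapped from Ifitm2 to Rsad2, from Rsad2 to Ifitm6 and from Ifitm6 to Cmpk2, so that part of the order is not resolved. Irgm1-KO changed the order. Ifitm3 (2278) was followed by Bst2 (1305), Ly6e (780), Rsad2 (459) and Cmpk2 (195), then Mx1 (177), Ifitm6 (84.9), Ifitm2 (26.5), Mx2 (19.5) and Ifitm1 (1.51 CPM per kb), and of these neighbours Cmpk2 and Mx1 overlapped. In Irgm_IFNAR-KO the membrane factors Ifitm3 (789), Ly6e (524), Bst2 (234), Ifitm2 (72.6) and Ifitm6 (26.7) all stood above Cmpk2 (9.79), Rsad2 (9.29), Mx1 (5.08), Ifitm1 (1.98) and Mx2 (0.643 CPM per kb), with Cmpk2 and Rsad2 not separable.

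The second experiment gave a like picture. In WT_control, Ly6e (847) and Ifitm3 (835) overlapped at the top, followed by Bst2 (243), Rsad2 (41.6) overlapping Ifitm2 (38.5), Cmpk2 (23.7), Ifitm6 (10.6) overlapping Mx1 (8.13), Ifitm1 (2.36) and Mx2 (1.39 CPM per kb). Irgm1KO_control had Ifitm3 (1636) first, Ly6e (742) and Bst2 (719) overlapping, then Rsad2 (255), Cmpk2 (119) overlapping Mx1 (113), Ifitm2 (27.9) overlapping Ifitm6 (23.7), which in turn overlapped Mx2 (15.8), and Ifitm1 (0.657 CPM per kb). With fenofibrate Mx1 was near the foot of the order in both genotypes, where it had also been in WT_control, at 4.88 CPM per kb in WT_fenofibrate and 10.5 in Irgm1KO_fenofibrate, below Ifitm6 at 8.92 and 10.9, with overlap in the knockout.

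**Figure D5:**
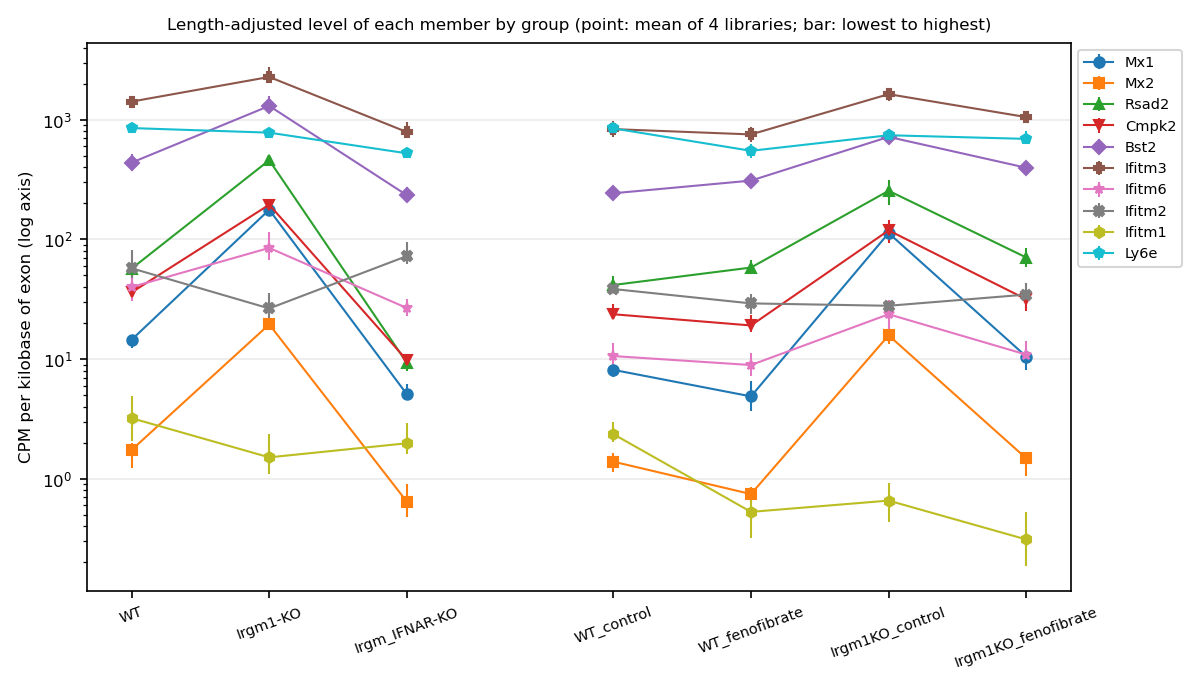
Length-adjusted level of each gene (CPM per kilobase of exon, log axis) in the 7 groups; points are means of 4 libraries, bars run from the lowest to the highest library, and lines join groups of an experiment. Rsad2, Cmpk2, Mx1 and Mx2 trace steep peaks at both Irgm1 knockout groups without fenofibrate, whereas Ly6e stays between 524 and 852 throughout.

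Ratios between genes of the same close group on a chromosome, per kilobase, are a description of how far each pair moved alike. Ifitm3 and Ifitm2 are not adjacent, since Ifitm1 lies between them. Mx1 over Mx2 was 8.49 ± 1.02 in WT, 9.10 ± 0.378 in Irgm1-KO and 8.15 ± 1.21 in Irgm_IFNAR-KO (SD, n = 4), with overlapping libraries. In the second experiment it was 5.87 ± 0.248 in WT_control and 7.16 ± 0.113 in Irgm1KO_control, without overlap. With fenofibrate the libraries of the genotypes overlapped, at 5.83 to 7.64 in WT_fenofibrate and 6.80 to 7.70 in Irgm1KO_fenofibrate. Rsad2 over Cmpk2 was 1.58 ± 0.139 in WT, 2.36 ± 0.159 in Irgm1-KO and 0.948 ± 0.0634 in Irgm_IFNAR-KO, without overlap. Ifitm3 over Ifitm2 was 25.5 ± 4.13, 87.3 ± 7.40 and 11 ± 0.929 in the same groups. Its second-experiment values were 21.7 ± 2.84 in WT_control, 26.1 ± 2.40 in WT_fenofibrate, 58.9 ± 7.43 in Irgm1KO_control and 30.7 ± 2.94 in Irgm1KO_fenofibrate.

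Of 13676 genes tested in both experiments, those without a symbol and predicted genes (Gm with digits, or Rik names) were passed over. Among the rest, the genes nearest each member in pattern were found by the root mean square difference in log2 group mean. This ran over 5 groups, each set against the wild type of its own experiment. The nearest gene to Mx1 was Mx2 (0.25), and the second nearest to either was Cd300e. Rsad2 had no close match among the genes searched. Usp18 was nearest (0.45), which rose 2.75 in Irgm1-KO and stood at -0.35 in WT_fenofibrate, where Rsad2 was higher. Cmpk2 was nearest to Phf11a (0.19) and Trim30c (0.21), Bst2 to H2-T10 (0.20) and Plk2 (0.22), Ifitm3 to Lpxn (0.08) and Nmral1 (0.13), and Ifitm6 to Mndal (0.06) and Nmi (0.09). Ifitm2 was nearest to Uqcrh and Pvrig (both 0.11), Ifitm1 to Cyp4f18 and Cd14 (both 0.36), and Ly6e to Rcn3 and Ifnar1 (both 0.13), the latter a subunit gene of the receptor removed in 1 of the 5 groups. Groups of the second experiment share WT_control in this measure. An offset of 0.5 CPM was added to each level before the log2 was taken, which shrinks differences of weakly expressed genes. Ifitm1 averaged 0.579 CPM in WT_fenofibrate, 0.719 in Irgm1KO_control and 0.34 in Irgm1KO_fenofibrate. Its nearest genes therefore depend on the offset and are not a firm match.

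A list of other interferon-induced antiviral genes was read in the same comparisons. Of 40 listed, 37 were higher and 1 lower in Irgm1-KO (median log2 1.56), 37 were higher and 1 lower in Irgm1KO_control (median 1.46), and 37 were lower in Irgm_IFNAR-KO than in Irgm1-KO (median -3.70). Against WT, 33 were lower in Irgm_IFNAR-KO (median -1.61). Fenofibrate lowered 26 and raised 2 in wild-type cells (median -0.41) and lowered 39 and raised 1 in knockout cells (median -1.26). Oasl1, an oligoadenylate synthetase-like protein, rose by 4.32 in Irgm1-KO, Apol9b by 5.80 and the RNA-binding Ifit1 by 2.16. The medians over all tested genes lay between -0.03 and 0.02 in all comparisons.

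Of 15 genes of type I interferon signalling, 8 were higher and 2 lower in Irgm1-KO, 14 were lower with fenofibrate in the knockout and 9 in the wild type. Irf7, which drives interferon genes, rose by 2.41 in Irgm1-KO and stood at -4.01 against WT in Irgm_IFNAR-KO. Stat2 rose by 1.27, and Socs3, a cytokine signal inhibitor, had a log2 difference of -1.17. Of 18 relatives of Ifitm and Ly6e, 6 were tested, and in Irgm1-KO 3 were higher and 1 lower. Ly6i rose by 3.43, Ly6m by 1.24 and Ly6c2 by 1.15 in the first experiment, whereas in the second Ly6c2 did not pass (-0.55, edgeR adjusted p = 0.176), and the 2 experiments differed in the test for Ly6i and Ly6c2 (adjusted p = 0.000617 and 0.0137).

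Relatives by protein family and partners gave mixed or small differences in Irgm1-KO versus WT. Among 5 tested dynamin-family relatives of the Mx proteins, the 3 with the smallest p did not pass, with Dnm2 at 0.32 (adjusted p = 0.0735), Mfn2 at 0.23 (adjusted p = 0.0889) and Dnm1l at 0.26 (adjusted p = 0.152). Of 16 nucleotide kinases related to Cmpk2, 3 were higher and 6 lower, with Uck2 at -1.75, Dck at 0.94 and Ak4 at 1.32. Of 9 partners of viperin and Ifitm3, 1 was higher and 6 lower, among them Hadhb, a mitochondrial trifunctional protein subunit that viperin binds, at -0.71, Zmpste24, a protease that works with IFITM proteins, at -0.34, and Nedd4, a ubiquitin ligase of IFITM3, at -2.11. Nedd4 was barely detected, at 0.39 ± 0.0635 CPM in WT and 0.0863 ± 0.0404 CPM in Irgm1-KO (SD, n = 4).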

How the data were processed

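Raw read counts per Ensembl gene were used as the authors deposited them, 1 table an experiment, from mRNA libraries read with 100 cycles in the first and 50 in the second experiment per the labels. The submitters' processing notes name fastp, STAR, DESeq2 and build GRCm39; the sources used here give no version, counting tool, annotation or strand setting. The first table lists only genes with at least 10 counts in some library. Symbols came from the reference tables.

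Counts were filtered (filterByExpr, minimum count 10, minimum total 15), scaled by TMM and fitted with edgeR 4.0.16 (robust quasi-likelihood, R 4.3.3), all groups of an experiment together, with Benjamini-Hochberg adjustment over 13998 and 15429 genes, and 15114 in the joint fit. CPM use the same scaling, 95% intervals are normal intervals from the standard error, and lengths are GENCODE vM21 exon unions. Alternatives were DESeq2 1.42.0, RLE scaling, no filter, an abundant unnamed gene left out, Xist as a covariate (both sexes were used), 2 groups alone, the replicate number as a block, and each library left out. In the first experiment Xist lay between 5.52 and 7.86 log2 CPM in every library. There the covariate did not split libraries by sex, and results with Xist are not sex-adjusted ones. Treated and control libraries of the same genotype and number deviated together (correlations 0.38 to 0.49 in wild type and 0.26 to 0.37 in knockout), so those numbers were taken as pairs. The results given first are from the fit without the block, and blocked values stand beside those whose call they change and some others. Libraries were left out in turn in the fit without the block only. In tests on simulated data 95% of genes changed by 1 log2 unit were recovered in Irgm1-KO versus WT (13809 genes) and 88.8% in Irgm1KO_control versus WT_control (15150 genes), with 5.8% and 2.6% of calls false. The simulation gave all genes the same spread and changed only a small part of them, unlike the data. These are therefore not the error rates of the real comparisons. Named genes were all 10 members, Irgm1 and Ifnar1, up to 3 genes a list with the smallest p in Irgm1-KO versus WT, and 2 nearest genes a member. Members and lists were chosen with earlier results of these data known.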

Additional observations from a re-analysis of the deposited data

Results flagged for a closer look

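Of 70 combinations of member and group checked, 7 held a library that stood far from the other 3, by Dixon's test at the 95% level. Chance flags about 1 in 20 groups. Each was the highest library of its group. These were Mx1 in Irgm_IFNAR-KO replicate 3 (23.3 CPM), Cmpk2 in WT_control replicate 3 (119 CPM), Ifitm1 in Irgm_IFNAR-KO replicate 4 (3.18 CPM) and Ifitm6 in Irgm1KO_fenofibrate replicate 1 (12.8 CPM). Ifitm2 had 3 of them, in WT replicate 2 (53.0 CPM), Irgm_IFNAR-KO replicate 4 (62.5 CPM) and Irgm1KO_fenofibrate replicate 2 (28.6 CPM).

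The response to fenofibrate differed by genotype for 9 members, by the test of the difference itself. The differences of log2 effects were -2.69 for Mx1, -2.52 for Mx2, -2.34 for Rsad2, -1.60 for Cmpk2, -1.21 for Bst2, -0.87 for Ifitm6, -0.49 for Ifitm3, 0.71 for Ifitm2 and 0.52 for Ly6e.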

How the results depend on the processing

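Of 100 tests on single members 71 passed the threshold. None of the 71 changed sign under any alternative run, 62 kept the call under all of them and 9 lost it under at least 1. With Xist as a covariate 2 members were higher in Irgm_IFNAR-KO than in Irgm1-KO and 1 higher than in WT, where 2208 genes were called higher and 2229 lower in place of 552 and 1150. Without the low-count filter 1 member was higher with fenofibrate in wild-type cells, 0 in knockout cells, and 2 were higher in Irgm1KO_fenofibrate than in WT_control. DESeq2 called 1 member lower in Irgm1KO_fenofibrate than in WT_fenofibrate. The cause was not tested.

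Reversals touched only differences near 0 that had not passed. In Irgm1KO_fenofibrate versus WT_control, Mx2 was at -0.00097 and Ifitm6 at -0.07 with Xist, and Ifitm6 ran from -0.12 to 0.17 with single libraries left out. In the test between experiments, Bst2 was at 0.01 with RLE scaling and DESeq2, and Mx2 at 0.04, Ifitm6 at 0.00283 and Bst2 at 0.00122 with Xist. Leaving out single libraries gave -0.15 to 0.06 for Mx2, -0.28 to 0.07 for Ifitm6, -0.11 to 0.12 for Bst2 and -0.02 to 0.20 for Cmpk2. Genes called in that test numbered 737 higher and 751 lower without WT replicate 1, and 733 and 1096 without Irgm1-KO replicate 3, in place of 369 and 576.

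With libraries left out in turn, members lower in Irgm1-KO ran from 1 to 2, members higher with fenofibrate from 1 to 2 in wild-type and 0 to 1 in knockout cells, members lower in Irgm1KO_fenofibrate than in WT_fenofibrate from 0 to 1, members higher than in WT_control from 2 to 5, and members lower in the test between experiments from 0 to 1. Replicate numbers did not pair libraries across genotypes (correlations -0.48 to 0.52 and -0.29 to 0.03). For fenofibrate within a genotype and for the interaction, the block was the pair within that genotype. For comparisons between genotypes it was the bare replicate number, which those correlations do not bear out as a pairing. With that block Cmpk2 in Irgm1KO_fenofibrate versus WT_control was at 0.40 (edgeR adjusted p = 0.0574). Beside this and the block values in the report no other call changed. Depth limits Ifitm1 most, with 19 to 385 counts a library.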
